A study of Mus musculus with 16 samples.

Results

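The regions described here were the compact, strongly enriched peaks of H3K27me3, the trimethylated form of lysine 27 of histone H3, in mouse embryonic stem cells. They were chosen by 2 values. The peak spanned less than 20000 bp, and its share of the counts of the 8 H3K27me3 libraries together was at least 1.5 times its share of the counts of the 8 input libraries together. Peaks on chromosomes 1 to 19 other than 11 were eligible. The rule kept 552 of 93233 eligible compact peaks (0.592%), out of 102957 consensus peaks in all. The same enrichment was reached by 344 broad domains of 20000 bp or more, while 92681 compact peaks stayed under it.

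Culture was on gelatin, in medium with fetal calf serum, LIF, the MEK inhibitor PD0325901 and the GSK3 inhibitor CHIR99021, a mixture that holds embryonic stem cells in the naive pluripotent state. Chromatin was fixed with formaldehyde and sonicated, and antibody-bound DNA was sequenced beside input DNA. The study asked how Firre, a long non-coding RNA transcribed from the X chromosome, acts at a distance. All 4 lines were labelled as given doxycycline and were sampled at 0 and 48 h. WT control had the genotype WT by its label, and WT transgene added to that genotype a Firre transgene that doxycycline induces. The labelled KO control had the genotype Firre KO by its label, and KO transgene combined that genotype with the same inducible transgene. Each line and time had 1 H3K27me3 library and 1 input library, so no condition had a replicate, and the labels do not say whether a line was 1 clone.

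H3K27me3 is placed by the methyltransferase subunits of Polycomb repressive complex 2 and is bound by canonical Polycomb repressive complex 1. In embryonic stem cells the mark is known to cover CpG-rich promoters of silent developmental genes, many of which also carry the activating mark H3K4me3. The widest domains in these cells are known to lie over clusters of homeobox genes, and narrower peaks sit at single promoters.

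Summed over all peaks, an H3K27me3 library held 10380781 to 14787938 counts and an input library 3340654 to 6244333. The compact peaks held 1.72% to 1.895% of the H3K27me3 counts of a library and 1.067% to 1.105% of the input counts. The labels were checked at the 1 peak within Firre, where input DNA at 0 and 48 h gave a normalised count (CPM, scaled by the library total) of 0.485 and 1.0 in WT control, 15.2 and 16.7 in WT transgene, 11.1 and 11.7 in the labelled KO control and 10.9 and 11.6 in KO transgene. By input, the labelled KO control lay with the transgene lines at this peak and not with WT control. It is therefore called the labelled KO control throughout. WT control, though labelled WT, had almost no input DNA there, 3 and 6 counts at 0 and 48 h. Its label is thus in doubt at this peak as well, and neither label was tested further. H3K27me3 at the same peak, at 0 and 48 h, was 0.0769 and 0.0 CPM in WT control, 19.5 and 4.34 in WT transgene, 15.8 and 14.3 in the labelled KO control and 13.5 and 3.18 in KO transgene. The mark was thus far lower at 48 h in both transgene lines and close to its level at 0 h in the labelled KO control, so by the mark that line stood apart from the transgene lines. In the input libraries, 1855 of 99005 peaks tested were called higher in the lines labelled KO (1.87%), and all but 22 of them lay on chromosome 11, which the rule leaves out.

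The promoters printed here show the range of base composition under compact peaks. Hes5, a Notch-induced bHLH repressor, Neurog1, a proneural bHLH activator, and Zfp804a, a zinc finger gene expressed in brain, had CpG-dense promoters. Gsx2, a homeobox factor of the ventral forebrain, was intermediate. Ajm1, a gene of the apical junction, and Ifnz, an interferon gene, were CpG-poor although their peaks were among the 3 with the highest enrichment. Each sequence holds 250 bases before and 50 bases after an annotated start site, from RefSeq on GRCm38.p6, written 5′ to 3′ along the gene with every CG dinucleotide in capitals. The windows were chr4:154960673-154960972 on the plus strand for Hes5, chr13:56252131-56252430 on the minus strand for Neurog1, chr2:82053408-82053707 on the plus strand for Zfp804a, chr5:75075351-75075650 on the plus strand for Gsx2, chr2:25580050-25580349 on the minus strand for Ajm1 and chr4:88781881-88782180 on the plus strand for Ifnz.
Hes5: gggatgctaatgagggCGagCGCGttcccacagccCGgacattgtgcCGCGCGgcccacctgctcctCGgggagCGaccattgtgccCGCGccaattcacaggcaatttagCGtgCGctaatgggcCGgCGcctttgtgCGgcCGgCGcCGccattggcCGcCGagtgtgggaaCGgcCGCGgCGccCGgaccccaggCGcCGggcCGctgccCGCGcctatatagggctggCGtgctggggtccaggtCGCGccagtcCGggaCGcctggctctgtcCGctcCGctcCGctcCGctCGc
Neurog1: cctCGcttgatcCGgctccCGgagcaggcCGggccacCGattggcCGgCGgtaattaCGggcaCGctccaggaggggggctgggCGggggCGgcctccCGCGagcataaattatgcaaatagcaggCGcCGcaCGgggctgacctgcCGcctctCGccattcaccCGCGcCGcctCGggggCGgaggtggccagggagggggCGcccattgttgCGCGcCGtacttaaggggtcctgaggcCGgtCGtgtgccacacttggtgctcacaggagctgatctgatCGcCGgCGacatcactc
Zfp804a: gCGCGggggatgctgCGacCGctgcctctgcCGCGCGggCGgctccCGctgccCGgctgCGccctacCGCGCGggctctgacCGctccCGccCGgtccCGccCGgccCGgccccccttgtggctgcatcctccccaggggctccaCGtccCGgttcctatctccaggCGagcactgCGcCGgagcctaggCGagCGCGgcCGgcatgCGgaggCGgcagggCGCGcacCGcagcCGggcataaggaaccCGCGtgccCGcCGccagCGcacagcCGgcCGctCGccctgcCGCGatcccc
Gsx2: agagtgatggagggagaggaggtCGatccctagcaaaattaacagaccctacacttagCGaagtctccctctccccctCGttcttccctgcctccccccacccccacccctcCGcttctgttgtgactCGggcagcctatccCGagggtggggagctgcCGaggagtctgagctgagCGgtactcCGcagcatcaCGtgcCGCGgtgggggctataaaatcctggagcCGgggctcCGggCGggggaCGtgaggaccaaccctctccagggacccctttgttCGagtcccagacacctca
Ajm1: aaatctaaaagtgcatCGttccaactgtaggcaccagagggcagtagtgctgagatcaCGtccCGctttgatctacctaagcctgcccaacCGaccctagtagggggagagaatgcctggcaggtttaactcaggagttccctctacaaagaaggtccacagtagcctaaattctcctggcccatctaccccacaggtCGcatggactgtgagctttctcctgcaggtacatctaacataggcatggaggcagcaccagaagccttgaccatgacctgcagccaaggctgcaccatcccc
Ifnz: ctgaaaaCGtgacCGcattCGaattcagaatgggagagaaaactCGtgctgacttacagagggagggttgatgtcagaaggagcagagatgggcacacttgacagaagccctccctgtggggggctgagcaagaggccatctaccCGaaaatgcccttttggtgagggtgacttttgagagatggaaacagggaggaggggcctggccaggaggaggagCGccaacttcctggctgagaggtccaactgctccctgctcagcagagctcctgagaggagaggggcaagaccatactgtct
The windows of Zfp804a, Hes5 and Neurog1 held 45, 41 and 32 CpG and had a GC content of 79.3%, 72.7% and 69.3%. Gsx2 held 17 CpG, Ifnz 6 and Ajm1 5.

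Enrichment over input among the 552 peaks ran from 1.5004 to 2.55 with a median of 1.62, and 32 peaks reached 2 or more. These values chose the peaks and are given as a description. In single conditions, 123 peaks were at 1.5 or more in all 8, and 532 were above 1 in all 8. The median SD of a peak's ratio over the 8 conditions was 0.199, which includes differences between lines and times. The peaks spanned 318 to 19866 bp with a median of 9651 bp, 123 were under 5000 bp and 111 were 15000 bp or wider. A peak received a median of 408.8 H3K27me3 counts and 108.6 input counts per library, and 529 peaks had a mean of at least 50 H3K27me3 counts.

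Just inside the enrichment threshold lay the peaks at Elavl2 (1.5004), Pde8a (1.5006) and Cdc42ep1 (1.5007), and just outside it those at Rab8b (1.4998), Adamts1 (1.4995) and Pfkfb3 (1.4993). Just inside the width threshold lay Mapk12 with Mapk11 and Hdac10 (19866 bp), Gm4757 (19860 bp) and 6430548M08Rik (19859 bp), and just outside it Scube1 and Tnfrsf25 (20034 bp each) and Ccno with Mcidas (20036 bp). The peaks on either side of each threshold thus differed by little in the value that parted them.

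The 12 peaks with the highest enrichment included genes of neural development and signalling. Hes5 (2.40 ± 0.121, SD over the 8 conditions) lay in a peak at chr4:154947810-154964071. Cdk5r2, an activator of the neuronal kinase Cdk5, was at 2.27 ± 0.273. Fgf8, a ligand that patterns the early embryo, shared a peak with Npm3 at 2.22 ± 0.103. A peak at 2.21 ± 0.195 covered both Dgat1, a triglyceride synthesis enzyme, and Scrt1, a neural zinc finger repressor. Lmo4, which encodes a LIM-only cofactor, was at 2.18 ± 0.248. The other high peaks lay at Ajm1 (2.47 ± 0.236), at Shmt2, Nxph4 and Lrp1 (2.40 ± 0.239), at Agap2 with Os9 (2.39 ± 0.185), at Cracd (2.36 ± 0.251) and at Pnmal2 with Pnmal1 (2.25 ± 0.506). The remaining pair lay side by side on chromosome 4 in the interferon zeta cluster, at Gm13277 and Gm13278 (2.55 ± 0.717) and at Ifnz (2.45 ± 0.592), with the widest spread of the 12.

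Little input DNA was counted under the interferon zeta peaks. The peak at Gm13277 rested on 461 H3K27me3 counts and 80 input counts over the 8 conditions, and that at Ifnz on 1316 and 238. Summed input was 46.1 counts per kb at Gm13277 and 39.8 at Ifnz, beside a median of 101 over all peaks and 93.9 over the compact enriched peaks. Of the 552 peaks, 7 had less than 50% of the median input per kb of all peaks. They were 3 peaks of the interferon zeta cluster (the third at Gm13275, 2.17), 1 at Adgrl3 (1.65), 1 at Gm35969 (1.71) and 2 with no gene within 2000 bp (2.08 each). The part that low input plays in their ratios was not tested.

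Hes5 shows how steady a well-covered peak was. Its normalised counts (CPM with the library total scaled by TMM, as in all values that follow) at 0 h were 71.3 CPM in WT control, 75.1 in WT transgene, 80.4 in the labelled KO control and 76.7 in KO transgene, and at 48 h they were 67.5, 75.7, 73.8 and 74.1. WT control was lowest at both times, and the others overlapped. Its enrichment lay between 2.197 and 2.542 in every condition. Lhx3, a LIM homeobox factor of pituitary and motor neurons, had 61.5, 64.7, 68.8 and 62.0 CPM at 0 h and 53.7, 61.9, 61.5 and 54.1 at 48 h in the same order of lines. Every line was lower at 48 h, and the times overlapped.

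Measures that the rule did not use also set these peaks apart from weaker ones. The authors' peak caller had given them a median fold of 2.811, beside 2.816 for the broad domains and 1.531 over all peaks, from 1.394 to 4.846 at Ajm1. This fold is the authors' value per peak and may come from the same libraries, so it is not independent of the counts. A protein-coding gene lay within 2000 bp of 482 peaks (87.3%), beside 42.5% of the weaker compact peaks and 93.6% of the broad domains. Among the 535 peaks off chromosome 18, 291 (54.4%) contained a start site of the promoter set, beside 5.37% of weaker compact peaks and 76.9% of broad domains. The compact enriched peaks lay between those groups in both respects. The promoter set held 15185 of the 19052 coding genes and also lacked genes off chromosome 18, so the shares with a start site are minimum values. The weaker peaks were not matched to them in width.

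The peaks were spread over the autosomes. Chromosome 7 held 60, or 0.938% of its compact peaks, chromosome 4 held 49 (0.911%) and chromosome 16 held 8 (0.203%). Another strongly enriched peak, compact or broad, lay within 50000 bp of 87 (15.8%), beside 15.4% of broad domains and 5.02% of weaker compact peaks. A broad domain lay that close to 25 of the compact enriched peaks (4.53%). Their median distance to the nearest strongly enriched peak was 536 kb, beside 326 kb for broad domains and 974 kb for weaker compact peaks.

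The promoters inside compact enriched peaks held more CpG than those in weaker compact peaks or outside every peak. The 330 promoters of 282 coding genes held a median of 19 CpG in 300 bases, with quartiles of 10 and 28. The 358 promoters in broad domains also had a median of 19, the 3375 in weaker compact peaks 8, and the 13282 outside every peak 15. Median GC content was 64.0% in compact enriched peaks, 62.3% in broad domains, 55% in weaker peaks and 56.7% outside peaks. A window with a GC content of at least 55% and an observed over expected CpG ratio of at least 0.6 was counted as island-like. That held for 176 of the 330 (53.3%) and for 51.7% of those in broad domains. It held for 27.6% in weaker peaks, 44.8% outside every peak and 41.7% of all coding promoters. The median observed over expected ratio was 0.641 in compact enriched peaks and 0.638 outside every peak. It was 0.687 in broad domains and 0.383 in weaker peaks. The letters TATAAA on either strand occurred in 31 of the 330 windows (9.39%) and in 12.8% of all coding promoters. By these measures the promoters in compact and broad strongly enriched peaks were close to each other.

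**Figure D1:**
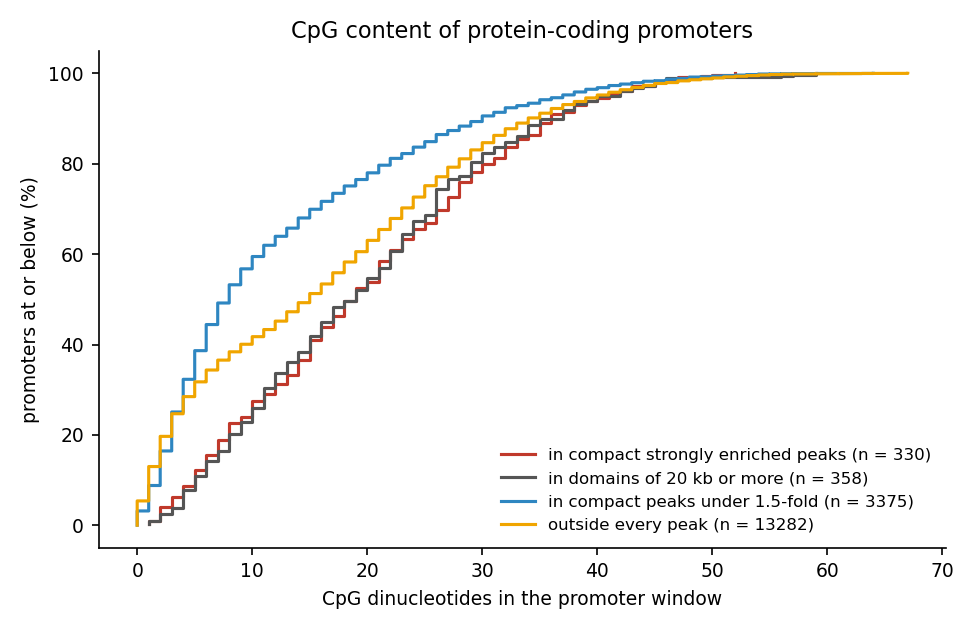
Cumulative share of protein-coding promoters (y axis, percent) by the number of CpG dinucleotides in a window of 300 bases at the start site (x axis), for promoters in compact strongly enriched peaks, in broad domains, in weaker compact peaks and outside every peak. The first 2 curves nearly coincide with medians of 19 CpG, and the weaker compact peaks lie to the left with a median of 8.

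Developmental genes were found under compact peaks in proportions that depended on the gene family. Of 19052 coding genes on the eligible chromosomes, 616 (3.23%) had a compact enriched peak within 2000 bp and 544 (2.86%) a broad domain. Among homeobox genes outside the Hox clusters, 12 of 108 had a compact peak and 73 a broad domain. Of the 29 Hox cluster genes on these chromosomes, 0 had a compact peak and 28 lay in broad domains. The Sox, forkhead, T-box, Gata and zinc finger regulators were divided in the same way, with 8 of 107 at compact peaks and 54 at broad domains.

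Neighbouring genes can share a peak, so these counts are of genes and not of independent regions. The bHLH factors were divided nearly evenly, 10 of 60 at compact peaks and 11 at broad domains. Signalling ligands had 15 and 13 of 72, signalling receptors and secreted inhibitors 7 and 8 of 67, and axon guidance and adhesion genes 10 and 8 of 79. Of the neuronal channels and transmitter receptors, 21 of 111 had a compact peak and 10 a broad domain. In that list the compact form was the more frequent, while in the homeobox list the broad form was.

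**Figure D2:**
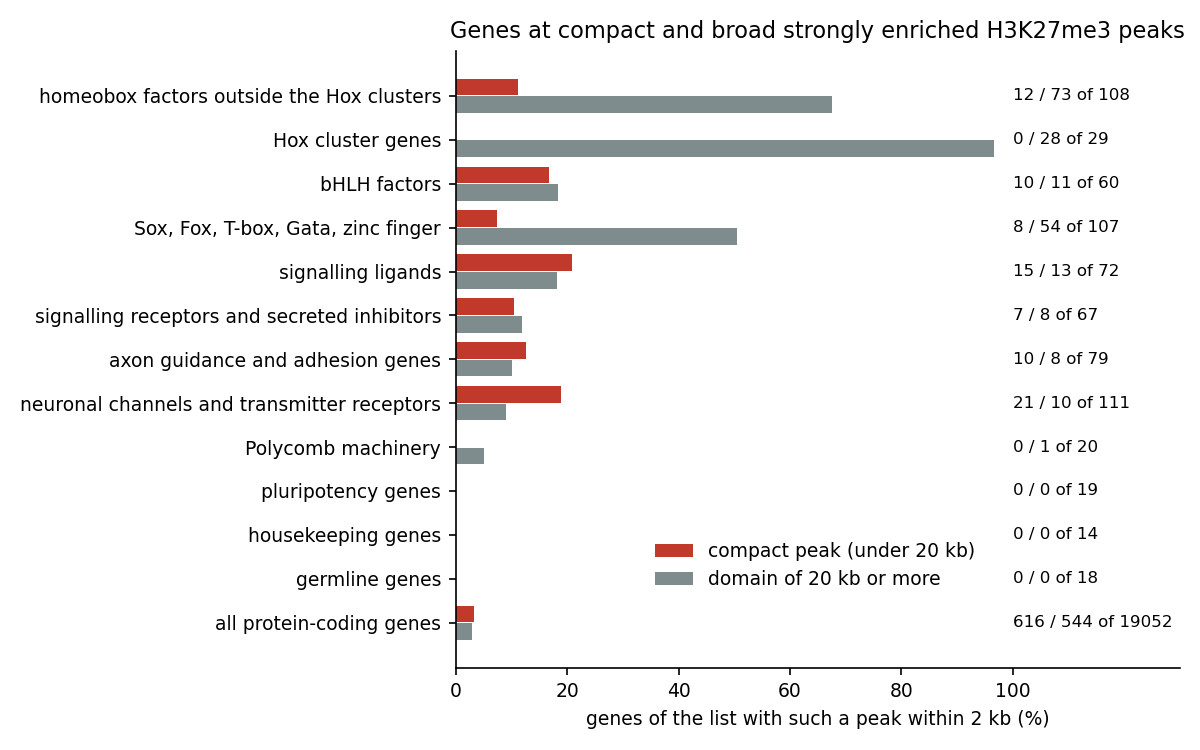
Share of the genes of each list (x axis, percent) that had a compact strongly enriched peak or a broad domain within 2000 bp, with the counts at the right as compact / broad of all genes on the eligible chromosomes. Broad domains prevail for Hox (28 of 29) and other homeobox genes (73 of 108), and compact peaks for neuronal channels and receptors (21 against 10 of 111).

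Within the transcription factor lists, the highest ratios among homeobox genes were those of Lhx3 (2.18 ± 0.184, SD over the 8 conditions), Gsx2 (1.92 ± 0.137) and Vax2 (1.90 ± 0.175), all regulators of neural or eye development. Among bHLH factors they were Hes5, Neurog1 (2.11 ± 0.244) and Bhlhe23 (1.81 ± 0.209). Among the other regulators they were Tfap2a, a neural crest factor (1.91 ± 0.320), Esrrg, an orphan nuclear receptor (1.81 ± 0.288), and Snai1, a repressor of epithelial genes (1.76 ± 0.122).

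Among signalling genes, Fgf8 was followed by the ligands Dhh (1.98 ± 0.213), Wnt2b (1.95 ± 0.196) and Wnt7b (1.91 ± 0.147). Receptors and secreted inhibitors had lower values, with the neurotrophin receptor gene Ntrk2 at 1.75 ± 0.161 and the Wnt inhibitor gene Dkk2 at 1.62 ± 0.110. In the guidance list the ephrin ligand genes Efna3 (2.11 ± 0.232) and Efna2 (1.82 ± 0.314) stood first. Among channels and receptors the highest were Grm2, a metabotropic glutamate receptor gene (1.93 ± 0.146), Adra2a, an adrenergic receptor gene (1.86 ± 0.186), and Grin1, an NMDA receptor subunit gene (1.85 ± 0.268). The SDs of neighbours in these orders overlapped.

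None of the 19 pluripotency genes examined and none of the 14 housekeeping genes had a compact enriched peak or a broad domain, while 4 and 3 of them had a consensus peak of some kind. Over all coding genes the shares were 3.23% and 2.86%, which come to less than 1 gene in lists of this size, so these counts do not set the lists apart. The counts were also 0 of 18 germline genes, and 0 compact and 1 broad of 20 genes of the Polycomb machinery. Of the 29 imprinted genes, Gnas alone had compact enriched peaks, 2 in number. Markers of other cell types were held at compact peaks for 1 of 19 fibroblast genes (Cd248), 1 of 17 primitive endoderm genes (Amn), 1 of 13 trophoblast genes (Eomes) and 0 of 13 primed epiblast genes. Since the mark is found at silent genes, these counts do not show which cells were present.

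The comparison of 48 h with 0 h addressed whether H3K27me3 changed during doxycycline in all lines. Lower counts at 48 h were called at 11 of the 552 compact peaks and higher counts at 0, beside 0.102% and 0.0068% of all peaks (edgeR quasi-likelihood test with line as block, Benjamini-Hochberg adjusted p under 0.05 over all peaks). At an unadjusted p under 0.05, 146 were lower and 7 higher (3.7% and 3.23% of all peaks). By limma-voom 13 were lower and 0 higher, and by DESeq2 0 were called in either direction. In input, 0 of the 534 compact peaks tested by edgeR were called (0.0% of all peaks), and 32 had an unadjusted p under 0.05 (4.96% of all peaks). Each of the 11 was lower at 48 h in all 4 lines. Among the 344 broad domains, 45 (13.1%) were called lower and 0 higher by edgeR, and 178 (51.7%) were lower at an unadjusted p under 0.05. In bulk chromatin, fewer cells with the mark and less mark per cell cannot be told apart.

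The called peaks included transcription factor genes of early development. Foxp1, a forkhead factor, had 15.8, 17.5, 14.5 and 15.8 CPM at 0 h in WT control, WT transgene, the labelled KO control and KO transgene, and 11.3, 13.1, 12.2 and 12.5 at 48 h. All 4 values at 0 h lay above all 4 at 48 h. The log2 change was −0.38 ± 0.076 (SE, adjusted p = 0.00225 by edgeR), and input changed by −0.02 ± 0.143. The peak at chr6:99518520-99522552 covered a start site of Foxp1 and was 4032 bp wide.

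Tfap2a had 63.9, 62.9, 76.5 and 73.9 CPM at 0 h and 57.0, 55.9, 69.7 and 59.5 at 48 h in the same order of lines. The times overlapped across lines, since the labelled KO control at 48 h lay above both WT lines at 0 h, but every line was lower at 48 h. The log2 change was −0.20 ± 0.037 (adjusted p = 0.000322 by edgeR), with input at 0.10 ± 0.075. The peak of Pde8a, a cyclic nucleotide phosphodiesterase gene, had 11.4, 11.7, 8.66 and 10.7 CPM at 0 h and 7.51, 7.66, 6.89 and 8.75 at 48 h. Its log2 change was −0.46 ± 0.095 (adjusted p = 0.00253 by edgeR), but input there changed by −0.36 ± 0.174, and with input as offset the change was −0.08 ± 0.176. Its values at the 2 times nearly parted, with 8.66 at 0 h below 8.75 at 48 h.

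Atf3, a stress-induced leucine zipper factor, had 29.9, 31.5, 35.4 and 33.3 CPM at 0 h and 24.1, 25.5, 31.1 and 29.8 at 48 h, a log2 change of −0.24 ± 0.053. The times overlapped across lines, and every line was lower at 48 h. Zfp804a changed by −0.23 ± 0.056 from 28.4, 29.9, 28.4 and 28.0 CPM to 22.8, 24.5, 26.2 and 24.8, with every value at 0 h above every value at 48 h. A peak at Lrrc4b, a synaptic adhesion gene, and Aspdh changed by −0.26 ± 0.054. None of these calls held in every fit that left out a library. With line as block, a library without its partner tells nothing of the change, so that line's pair was lost. At Foxp1 the change was −0.343 without either the 0 h or the 48 h library of WT control. At Zfp804a the change ran from −0.259 to −0.199, and the SE rose from 0.056 to between 0.0641 and 0.0654. Whether calls were lost through a certain library or through having fewer pairs was not tested. Of the 8 fits that left out a library, 0 kept the call of Zfp804a (adjusted p = 0.0454 by edgeR with all libraries), 2 that of Atf3, 4 each those of Foxp1, Lrrc4b and Pde8a, and 6 that of Tfap2a.

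The remaining 5 called peaks lay at Mapk15 with Fam83h and Iqank1 (−0.20 ± 0.037), Gsx2 (−0.18 ± 0.036), Eomes, a T-box factor of trophoblast and mesendoderm (−0.16 ± 0.040), Neurog1 (−0.16 ± 0.037) and Lhx3 (−0.15 ± 0.038). They are named after their values were seen. Of the 11 peaks, 7 covered a start site of the promoter set, which lacks some genes. By list, the lower calls fell on 2 of 12 homeobox peaks, 1 of 10 bHLH peaks and 3 of 8 peaks of the other regulators, Foxp1, Tfap2a and Eomes. The lists of ligands, receptors, guidance genes and channels, with 16, 7, 11 and 21 peaks, had 0 called in either direction. Over all 552 peaks 1.99% were called lower, so counts of 0 do not set those lists apart. Their median changes were −0.06, −0.09, −0.09 and −0.06, beside a median of −0.06 over all 552 peaks.

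**Figure D3:**
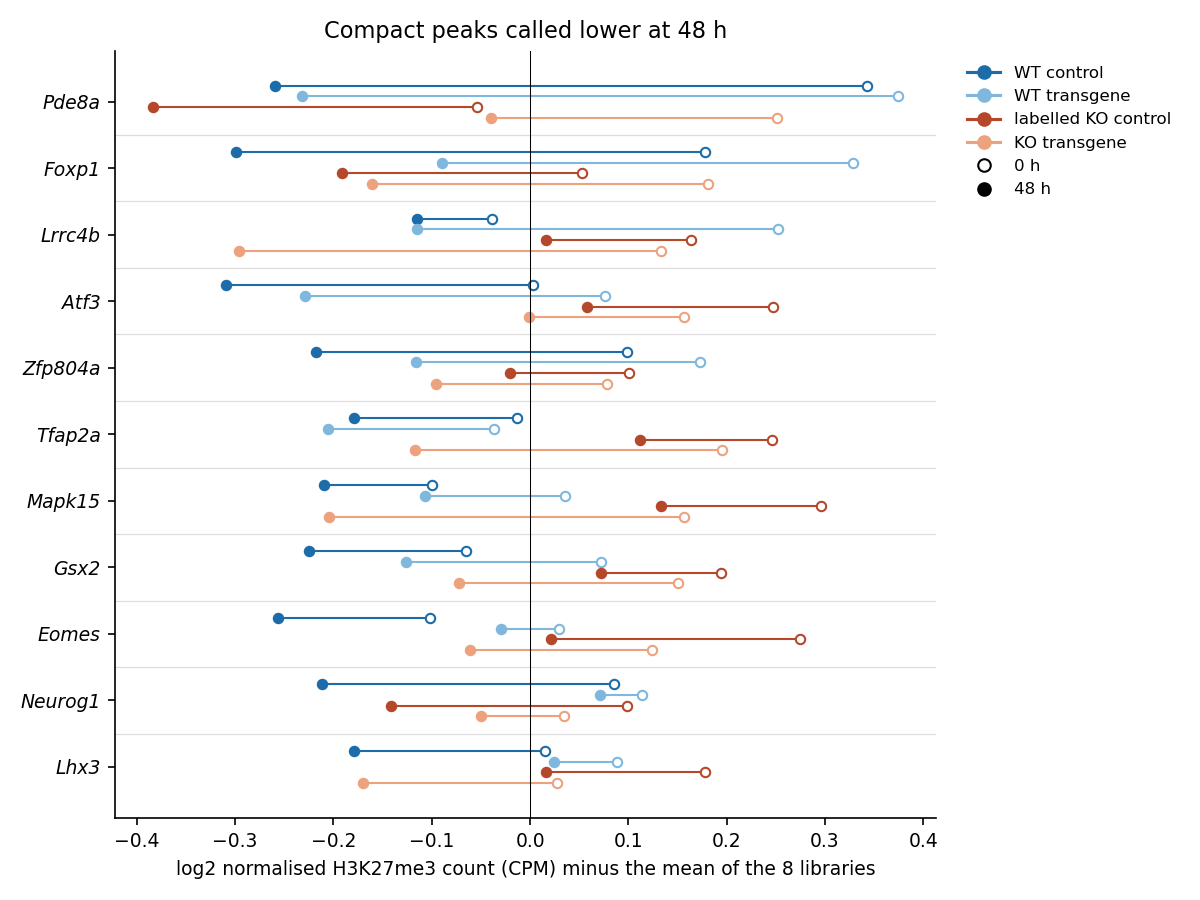
Normalised H3K27me3 counts at the 11 compact peaks called lower at 48 h, as log2 CPM minus the mean of the 8 libraries (x axis), with open points at 0 h, filled points at 48 h and 1 line segment per cell line. All segments run to lower values at 48 h, from a change of −0.043 at Neurog1 in WT transgene to −0.604 at Pde8a in the same line.

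The peaks as a group were slightly lower at 48 h. The median log2 change was −0.06, with 445 of 552 (80.6%) below 0, beside a median of 0.00 over all peaks and −0.06 over the broad domains. By line, it was −0.07 for WT control, −0.05 for WT transgene, −0.08 for the labelled KO control and −0.06 for KO transgene. All 4 lines were lower at 48 h at 169 peaks (30.6%) and higher at 13, against 7.46% and 6.88% of all peaks. Among the 344 broad domains, all 4 lines were lower at 169 (49.1%) and higher at 7. Input at the compact peaks had a median change of −0.02. Peaks with a coding gene within 2000 bp changed by a median of −0.07, and the 70 without one by −0.02.

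The median enrichment of the compact peaks was lower at 48 h in 3 lines and higher in WT transgene, whose median change was below 0 as well. It was 1.6168, 1.687, 1.7311 and 1.672 at 0 h and 1.5636, 1.6953, 1.6642 and 1.6474 at 48 h in the order WT control, WT transgene, labelled KO control and KO transgene. With an offset per library that follows enrichment over input across all peaks, the median change was −0.01, 1 compact peak was called lower and 1 higher. With input as offset the median was −0.04 and 0 were called lower. With 1 library left out, 4 to 6 were called lower, with 4 when either library of WT control or of KO transgene was left out.

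**Figure D4:**
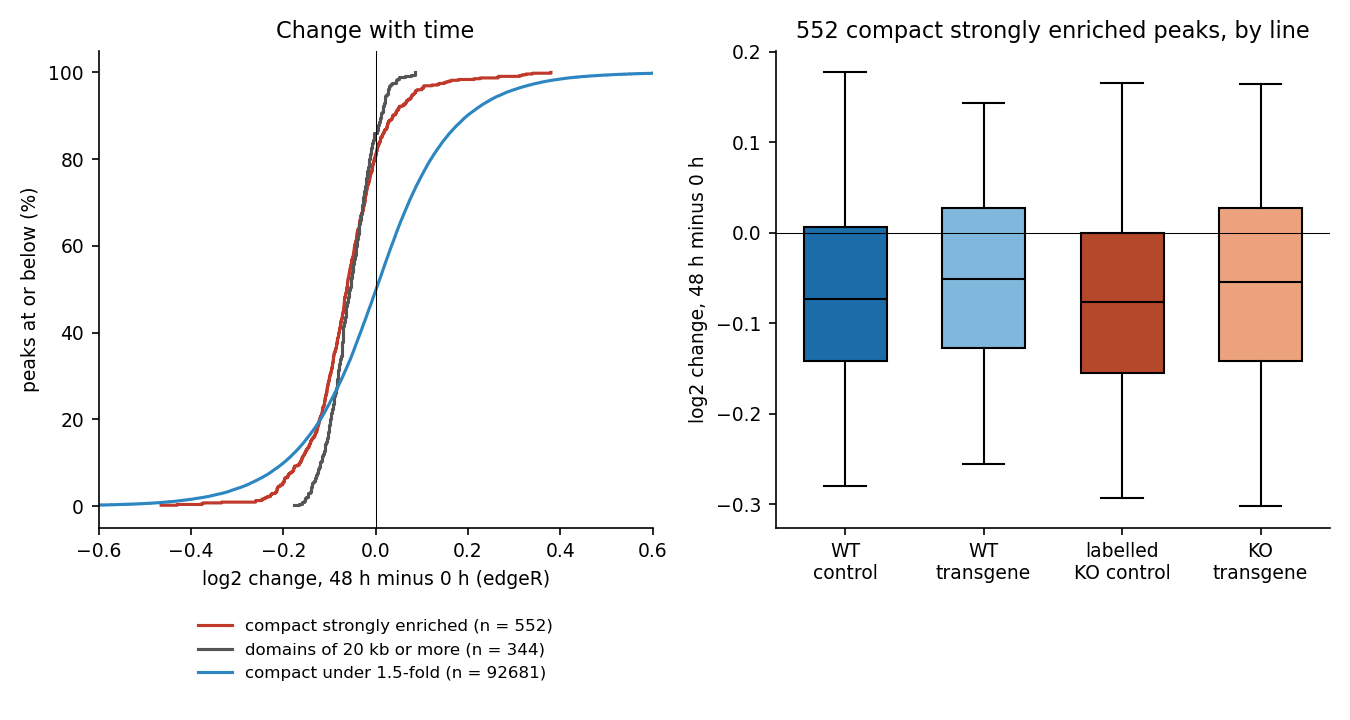
Left, cumulative share of peaks (y axis, percent) by log2 change from 0 to 48 h (x axis, edgeR) for compact strongly enriched peaks, broad domains and weaker compact peaks. Right, the change of the 552 compact peaks in each line (box, quartiles with the median; whiskers, 5th to 95th percentile): the medians lie between −0.08 and −0.05, and the upper quartiles lie close to 0.

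The difference between transgene and control lines in their change from 0 to 48 h addressed Firre induction. At the compact peaks 0 were called in either direction (edgeR, adjusted p under 0.05), beside 0.0% higher and 0.00583% lower of all peaks. By DESeq2 and limma-voom the counts were also 0. At an unadjusted p under 0.05, 18 were higher and 11 lower (2.49% and 2.42% of all peaks). The median difference was 0.02 on the log2 scale, and the 5th and 95th percentiles were −0.21 and 0.21. This comparison had 2 residual degrees of freedom, and the labelled KO control, which had input DNA at the Firre peak like the transgene lines, stood among its controls. In simulated counts, the fit recovered 6 of 100 changes of 0.25 on the log2 scale and 67 of 100 of 0.5. The 0 calls therefore do not show that small differences were absent.

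The 3 compact peaks with the lowest p did not pass the threshold. Clic6, an intracellular channel protein gene, had 35.7, 41.7, 32.9 and 40.04 CPM at 0 h and 38.9, 38.6, 37.9 and 36.2 at 48 h in WT control, WT transgene, the labelled KO control and KO transgene. The control lines were higher at 48 h and the transgene lines lower, a log2 difference of −0.29 ± 0.094 (adjusted p = 0.955 by edgeR). Hapln2, a gene of the brain extracellular matrix, differed by 0.25 ± 0.081 (adjusted p = 0.957 by edgeR). Input at Hapln2 differed by 0.21 ± 0.161 in the same direction, and with input as offset the difference was 0.054 ± 0.154. Tmprss9, a membrane serine protease gene, differed by −0.30 ± 0.105 (adjusted p = 0.99 by edgeR).

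Differences between the 4 lines were called more often than changes with time, although their sizes were close. The median absolute log2 difference was 0.107 between lines at the same time and 0.098 between the times of a line. Any difference was called at 86 compact peaks (15.6%), beside 5.21% of all peaks and 2.63% of those outside chromosome 11 (edgeR with time as covariate, adjusted p under 0.05). Among broad domains 201 of 344 (58.4%) were called. Broad domains hold more counts per peak, which was not matched. Input gave 0 calls by edgeR at the 534 compact peaks tested (1.63% of all peaks), with 26 at an unadjusted p under 0.05 (8.04% of all peaks). The median spread between the highest and lowest line was nonetheless 0.19 in input, beside 0.18 in H3K27me3. Input had fewer counts, a median of 108.6 per peak and library beside 408.8, so its 0 calls do not show that it was steady. WT control was the lowest line at 74 of the 86 called peaks and at 371 of all 552. The highest line among the 86 was the labelled KO control at 46, WT transgene at 28 and KO transgene at 12. Over all 552 peaks the order was another, with WT transgene highest at 237, the labelled KO control at 194, KO transgene at 110 and WT control at 11.

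WT control stood below the others across the group. Its median difference from the mean of the other 3 lines was −0.09 on the log2 scale, and both its libraries lay below the other 6 at 139 peaks (25.2%, against 3.88% of peaks outside chromosome 11). The trait was not particular to compact peaks. In the broad domains the median was −0.11, and both libraries lay below the other 6 at 164 of 344 (47.7%). WT control lay above the other 6 in both libraries at 1 compact peak (3.96% of peaks outside chromosome 11). The medians of WT transgene, the labelled KO control and KO transgene against the remaining lines were 0.05, 0.03 and 0.01. WT control also had the lowest median enrichment at both times, given with the time values. With the offset that follows enrichment, 37 peaks were called, 27 of them shared with the 86. Without the WT control library of 0 h 45 were called, and without that of 48 h 35. With input as offset 9 were called, and by DESeq2 5.

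Among the 86 called peaks the widest spread belonged to Gnas, the imprinted gene of the stimulatory G protein alpha subunit. Wider spreads at 3 peaks, of up to 1.21 at Gpr137b, were not called, and these peaks had a mean under 50 counts. The peak at chr2:174296434-174302168 lay within 2000 bp of Gnas and of the antisense gene Gnasas1. It had 17.8 and 17.7 CPM in WT control at 0 and 48 h, 21.5 and 22.3 in WT transgene, 32.2 and 29.9 in the labelled KO control and 26.7 and 24.2 in KO transgene. No pair of lines overlapped, and each line kept its place at both times. The highest and lowest line differed by 0.80 on the log2 scale (adjusted p = 1.98e-17 by edgeR), and the difference between lines was called under every setting tried. Input there had a spread of 0.32 and was not called.

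A second compact peak at Gnas, chr2:174323743-174329827, behaved differently. It had 24.5 and 22.5 CPM in WT control, 26.95 and 25.4 in WT transgene, 24.2 and 19.1 in the labelled KO control and 29.5 and 24.1 in KO transgene. The lines overlapped, and the labelled KO control was not the highest. The KO minus WT difference was −0.04, against 0.50 at the first peak. The difference between the peaks was not tested.

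Tlx2, a homeobox factor of enteric neurons, shared a peak with Dqx1. It had 43.6 and 39.98 CPM in WT control, 50.3 and 49.4 in WT transgene, 62.8 and 58.3 in the labelled KO control and 53.2 and 53.8 in KO transgene, which is the order of lines seen at Gnas. The lines did not overlap, the spread was 0.53 (adjusted p = 1.56e-15 by edgeR), and the call held under every setting tried. Amigo2, an adhesion gene, had another order. It had 41.9 and 35.9 CPM in WT control, 48.7 and 43.3 in WT transgene, 29.2 and 32.1 in the labelled KO control and 37.4 and 34.6 in KO transgene, with a spread of 0.57 (adjusted p = 2.86e-13 by edgeR). WT transgene was highest and the labelled KO control lowest.

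The other 9 of the 12 widest spreads among the called peaks lay between 0.40 and 0.52. They were at Gm9008, Gm41359, Tmem229a, Lrrc14 with Lrrc24, Ebf4 (an early B cell factor family gene), Gm30191 with Grrp1 and Zfp593, Pou2f3 (a POU factor of tuft cells), Nkx6-2 (a homeobox factor of oligodendrocytes and neurons) and Hsd11b2 (which inactivates glucocorticoids). WT control was the lowest line at Gm41359, Lrrc14, Ebf4, Gm30191, Nkx6-2 and Hsd11b2 in both libraries. At Gm9008 and Lrrc14 the 2 times of 1 line differed by as much as many lines did.

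**Figure D5:**
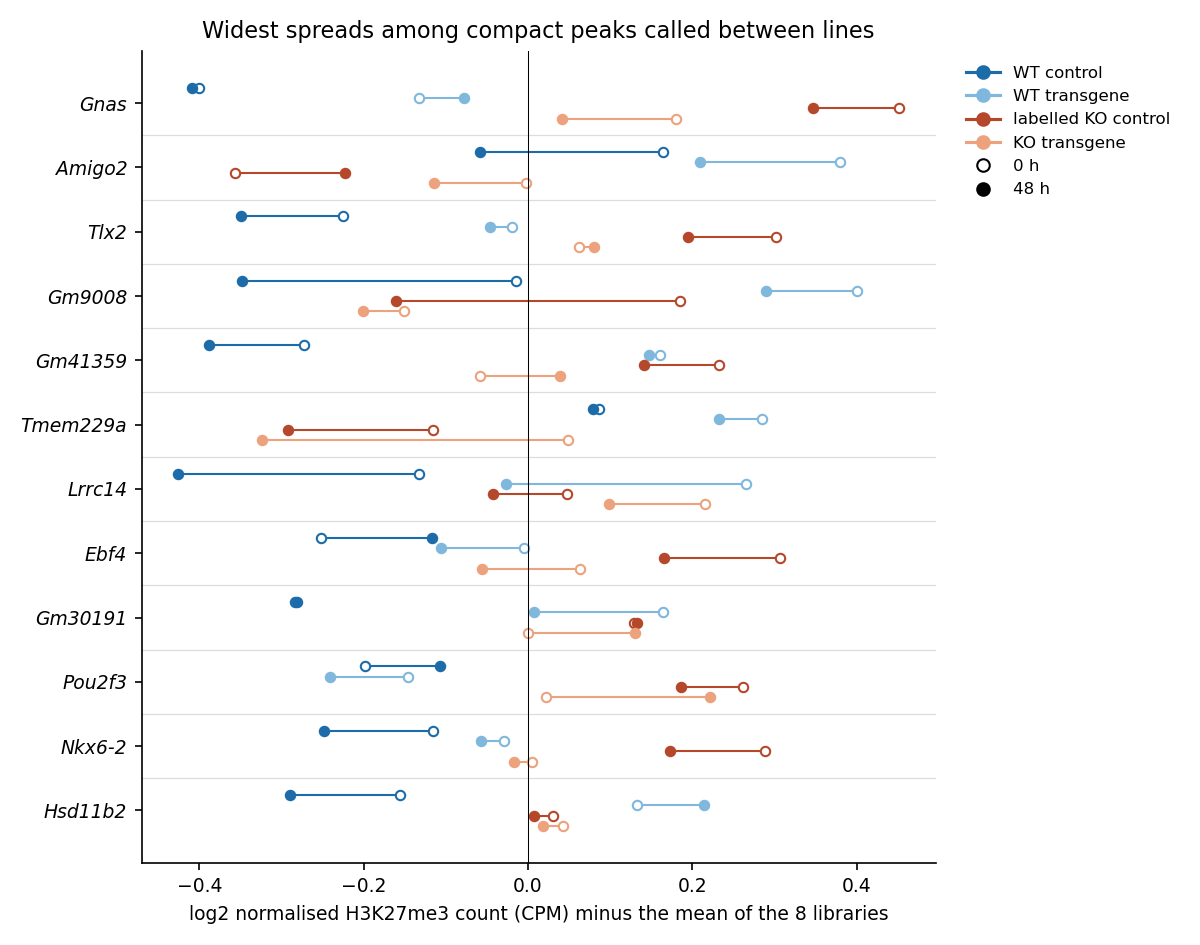
Normalised H3K27me3 counts at the 12 compact peaks with the widest spread among the 86 called between lines, as log2 CPM minus the mean of the 8 libraries (x axis), with open points at 0 h, filled points at 48 h and 1 colour per line. The lines do not overlap at Gnas and Tlx2 (spreads of 0.80 and 0.53), whereas the times of 1 line lie far apart at Gm9008.

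The comparison of lines labelled KO with WT lines asked whether the mark depends on Firre, with 2 lines on each side. Its fit had no term for line, so the 2 times of a line counted as separate measurements. The p-values therefore rest on 8 libraries and not on 2 lines per side. WT control, with almost no input DNA at the Firre peak, stood among the WT lines. The labelled KO control, which had input DNA there, stood on the other side. Higher counts in the lines labelled KO were called at 26 compact peaks (4.71%) and lower counts at 3 (0.543%), beside 3.8% and 0.622% of all peaks and 1.01% and 0.659% outside chromosome 11 (edgeR with transgene and time as covariates). Input gave 0 calls by edgeR in either direction (1.87% higher and 0.0707% lower of all peaks), with 21 of 534 at an unadjusted p under 0.05 (8.3% of all peaks). The split depended on the scaling. It was 17 higher and 9 lower with total counts and 14 and 14 with the offset that follows enrichment. The median difference of the 552 peaks was 0.03, 0.00 with total counts and −0.02 with that offset. All 4 libraries labelled KO lay above all 4 WT libraries at 23 peaks (4.17%) and below at 5, against 2.36% and 2.84% outside chromosome 11.

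The largest difference among the called peaks was again at Gnas, 0.50 ± 0.067 (SE, adjusted p = 2.68e-09 by edgeR), where all 4 libraries labelled KO were above all 4 WT libraries. Input differed by −0.06 ± 0.122. Pou2f3 was higher by 0.35 ± 0.065, with 18.96 and 20.2 CPM in WT control at 0 and 48 h, 19.7 and 18.4 in WT transgene, 26.1 and 24.8 in the labelled KO control and 22.1 and 25.4 in KO transgene. The 2 sides did not overlap. Tlx2 was higher by 0.31 ± 0.052 and Nt5e, which encodes the ectonucleotidase CD73, by 0.30 ± 0.047, also without overlap between the sides.

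Nt5e had 57.0 and 53.7 CPM in WT control, 55.2 and 59.6 in WT transgene, 74.0 and 70.8 in the labelled KO control and 64.3 and 68.7 in KO transgene. Ndnf, a secreted neurotrophic factor gene, was higher by 0.25 ± 0.051. Cd248, a gene of pericytes and fibroblasts, was higher by 0.29 ± 0.087 (adjusted p = 0.0334 by edgeR). At Cd248 the sides overlapped, since KO transgene at 48 h had 10.4 CPM and WT control at 0 h 10.7, and its call was lost in 6 of the 8 fits that left out a library. Among the lists, the higher calls included 3 homeobox peaks (Tlx2, Nkx6-2 and Gsx2) and 4 of the other regulators (Tfap2a, Sp8, Eomes and Snai1). They included 0 of the 10 bHLH peaks. The share over all 552 peaks was 4.71%, so 0 of 10 does not set the bHLH list apart.

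The 3 lower peaks lay at Samd11, Amigo2 and Tmem229a. Amigo2 differed by −0.34 ± 0.054 (adjusted p = 3.13e-07 by edgeR), although WT control at 48 h (35.9 CPM) lay below KO transgene at 0 h (37.4 CPM). Tmem229a, a transmembrane protein gene, differed by −0.34 ± 0.076. It had 16.3 and 16.2 CPM in WT control, 18.7 and 18.04 in WT transgene, 14.2 and 12.5 in the labelled KO control and 15.9 and 12.3 in KO transgene, and the sides did not overlap. Samd11 differed by −0.40 ± 0.117, with 6.65 and 6.31 CPM in WT control, 7.20 and 7.13 in WT transgene, 4.82 and 4.51 in the labelled KO control and 5.59 and 5.70 in KO transgene, again without overlap. Its call was lost in 6 of the 8 fits that left out a library. The 26 higher calls became 10 or 11 without either library of WT control or of the labelled KO control.

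The calls of the comparisons overlapped. Of the 29 peaks called between lines labelled KO and WT, 27 were among the 86 called between any lines, which is the same contrast in part. Of the 11 called with time, 6 were among the 86 and 5 among the 29. Tfap2a was in all 3 groups, with a log2 change of −0.20 at 48 h and a difference of 0.22 between the lines labelled KO and WT. Wider peaks were called more often between lines, 32 of 111 at 15000 bp or more and 5 of 123 under 5000 bp. The median difference of WT control from the other lines was −0.10 and −0.09 in these width classes.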

How the data were processed

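The authors deposited a table of unnormalised read counts for 16 libraries (8 H3K27me3, 8 input) over 1 set of consensus peaks. The deposited peak list gave each peak's position, a score, a fold enrichment ratio and a −log10 q-value. The submitters' processing notes list MACS2 2.2.71, BWA 0.7.17-r1188, DESeq2 1.26.0, featureCounts and the build mm10, with no role for any. The libraries used for peak calling are not stated, and regions strong in them would be favoured. Starts are printed as deposited.

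Members, gene lists and tests were chosen with earlier results of these data known. All 102957 peaks were fitted with edgeR 4.0.16 (R 4.3.3): TMM, filterByExpr (which kept every peak), the quasi-likelihood test and Benjamini-Hochberg adjustment at 0.05. The same models were fitted to input, where 99005 peaks were tested. With 3 residual degrees of freedom for time, 2 for induction and 4 for background, errors rested mostly on a spread pooled over peaks. As no label tells of separate cultures, p-values measure only the spread between these libraries. In the fits of line and of background, the 2 times of a line served as its 2 measurements. CPM uses TMM-scaled totals, and log2 values carry the SE of the fit, with a prior count of 0.5 for single-line changes. Alternatives were total counts, RLE factors, DESeq2 1.42.0, limma-voom (limma 3.58.1), a minimum mean count of 50, 2 offsets, no chromosome 11, no line block, and each library left out. The script was tested on simulated data.

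Genes and promoters came from RefSeq tables of GRCm38.p6, the same build as mm10, which hold gene spans without exons or UTRs and no promoters of chromosome 18. Promoters were at hand for 15185 of the 19052 coding genes, so genes on other chromosomes were missing as well. Named were the 12 peaks with the highest ratio, per comparison up to 6 rises and 6 falls by size among called peaks with at least 50 counts on average (for lines the 12 widest spreads, and 3 by p where fewer than 3 were called), list members with the highest ratio, and neighbours of the thresholds.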

Additional observations from a re-analysis of the deposited data

Results flagged for a closer look

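Of 82 sets of 4 values examined (1 line each), 1 held a value far from the other 3, where chance gives about 1 in 20. At the Ifnz peak of the interferon zeta cluster at 48 h, KO transgene had 14.6 CPM and the other lines 11.2 to 11.8. The gap made up 0.85 of the whole range. This peak rests on 238 input counts over the 8 conditions.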

How the results depend on the processing

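The 6 time, 3 induction and 9 KO against WT peaks that were refitted singly kept their direction under each alternative tried. Not all kept their calls. Of the 9 KO against WT peaks, 7 lost the call with input as offset and 4 with DESeq2, and Gnas alone kept it with both. The called peaks with the widest spreads between lines were refitted singly as well. With DESeq2, 8 of them lost the call, and Gnas, Amigo2, Tlx2 and Nkx6-2 kept it. With input as offset 9 lost it, and Gnas, Tlx2 and Gm30191 kept it. With the offset that follows enrichment 3 lost it, those at Gm41359, Lrrc14 and Hsd11b2. The remaining named peaks were not followed singly. The test of time pairs the 2 times of each line through a line block. Without that block, 0 compact peaks were called lower with time. The 11 lower calls with time became 0 with DESeq2, 1 with the offset that follows enrichment, 0 with input as offset and 4 to 6 with a library left out. Higher calls became 1 with that offset, 1 at a minimum mean count of 50 and 0 to 1 with a library left out. The 86 line calls became 5 with DESeq2, 37 with the enrichment offset, 9 with input as offset and 35 to 91 with a library left out. The 26 higher calls in lines labelled KO became 5, 14 and 3 in that order and 17 with total counts, and 10 to 27 with a library left out. The 3 lower calls became 1, 14 and 0 in that order, 9 with total counts, 7 at a minimum mean count of 50 and 2 to 3 with a library left out. The cause was not tested, except that fits without a library use fewer samples. Induction gave 0 calls in either direction throughout. Peaks at a coding gene numbered 482, and 498 with a margin of 10000 bp. Depth limits small peaks: 23 had a mean under 50 counts.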
